A study of Mus musculus with 6 samples.

Results

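The genes described here encode the chaperones of the endoplasmic reticulum (ER) and the unfolded protein response, the program by which cells match the folding capacity of the ER to its load of secretory and membrane proteins. They were taken as every probe set whose array annotation gave exactly 1 gene symbol from a list of 36, which returned 84 probe sets and all 36 genes out of 18193 genes named on the arrays. The tissue was the tracheal epithelium of adult C57Bl/6 mice, either uninjured (normal control) or collected 48 h after a 4 h inhalation of 500 ppm SO2 (48 hpi). The methods give male mice of 8 to 12 weeks for the exposure, and no sham exposure is named for the controls in the sources used here. Each of the 3 samples per group was a pool from 4 tracheas. In both groups the epithelium was peeled from the trachea after Dispase treatment, dissociated with trypsin and depleted of CD45+ leukocytes, and the RNA was amplified before hybridization to Affymetrix arrays. SO2 removes luminal cells and leaves basal cells to rebuild the epithelium, so the comparison asks how the machinery of secretory protein folding differed between the intact epithelium and the epithelium in early repair.

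As background, newly made secretory proteins enter the ER through the Sec61 channel, are folded by chaperones such as Hspa5 (BiP) and by protein disulfide isomerases, and are handed to the cytosol for destruction when folding fails. Sensors in the ER membrane report the load. Ern1 and its epithelial paralog Ern2 (IRE1α and IRE1β) splice the mRNA of the transcription factor Xbp1, Atf6 is cut in the Golgi to release a transcription factor, and Eif2ak3 (PERK) slows translation while favoring that of Atf4. Mucous cells depend on this system because of the size and number of the mucins they secrete. The arrays measured mRNA, so splicing of Xbp1, cleavage of Atf6 and phosphorylation by Eif2ak3 lay outside the measurement.

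Values are log2 expression after robust multi-chip analysis (RMA), given for control replicates 1 to 3 and then 48 hpi replicates 1 to 3, and changes are log2 differences of the group means, positive where 48 hpi was higher, each with its standard error (SE). Where several probe sets matched a gene, the brightest on average across the 6 arrays stood for it, and calls of higher or lower required adjusted p values under 0.05 (limma, Benjamini-Hochberg over all genes). Background was set at 4.94 in control and 4.81 at 48 hpi, below which lay 95% of 79 probe sets, by their mean in that group, of olfactory-type receptors (odorant, vomeronasal and trace amine), which airway epithelium is taken not to express. All 9 general epithelial markers were above it in both groups (Epcam, 11.04 ± 0.03 in control and 11.32 ± 0.09 at 48 hpi, SD, n = 3). Ptprc, which encodes CD45, was below it (3.04 ± 0.11 and 2.83 ± 0.02), as were the plasma cell gene Jchain (3.12 ± 0.08 and 3.07 ± 0.09) and all but 1 of 7 endothelial markers. Jchain was 1 of 11 plasma and B cell markers, of which 2 were above background in control and 3 at 48 hpi. Among these 11 markers 1 was called lower and 10 were not called. Of 11 fibroblast markers 2 were above background in control and 5 at 48 hpi. In that list 10 had higher means at 48 hpi, 2 were called higher (Fbln1, 1.73, and Vim, 0.63) and 1 lower (Dcn, −1.85), and Dcn carried the fall of the summed level from 10.32 to 10.80 in control to 9.22 to 9.96 at 48 hpi. With 3 pools in each group, 0.1 is the smallest two-sided p that an exact permutation test of 1 value can reach. In pooled tissue, fewer cells of a type and less RNA per cell cannot be told apart.

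Of the 36 genes, 8 were higher at 48 hpi and 8 were lower. That is 22.2% in each direction, beside 19.4% of all genes called higher and 17.5% called lower. The median change of the 36 was 0.04, and that of all genes was −0.02. These shares lay near those of the arrays in general, and the description therefore turns to the roles of the genes. Of 17 folding genes 3 were higher, 1 was lower and 13 were not called. Of 6 sensors and factors 4 were lower and none was higher. ER-associated degradation was divided, with 2 of 7 genes higher and 2 lower, and in the ATF4 branch 3 of 6 genes were higher and 1 was lower. Groups of arrays did not overlap for 8 genes that were higher and 12 that were lower at 48 hpi, 20 genes in all. Among all genes 25.4% and 25.1% met the same condition in each direction, and 50.4% in either.

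**Figure D1:**
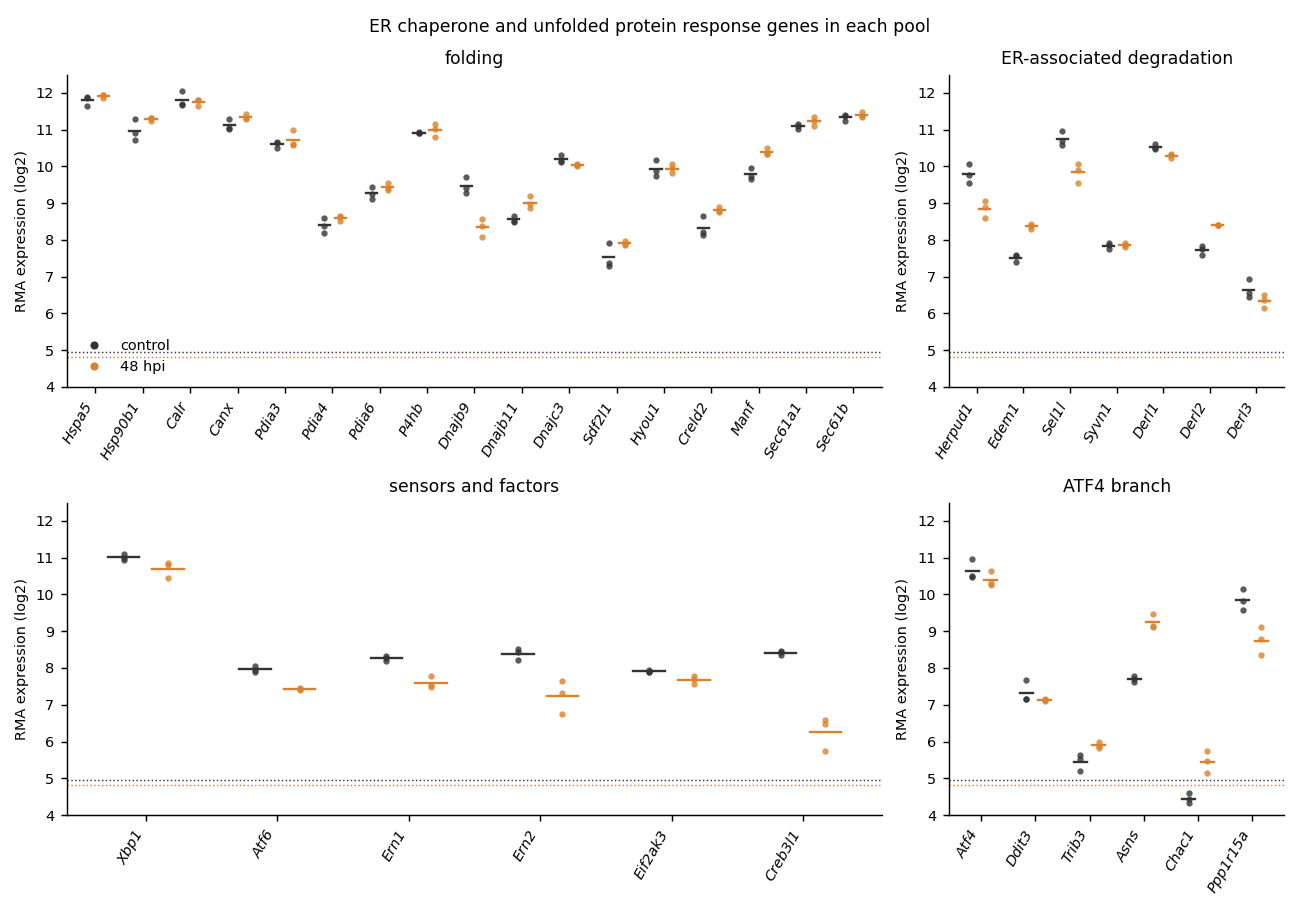
RMA expression (log2) of the 36 genes in each pool of control (dark) and 48 hpi (orange) epithelium, by role, with points for pools, bars for means and dotted lines for the background of each group. The 48 hpi points of Creb3l1 (5.73 to 6.58) lie far below the control points (8.36 to 8.45), those of Asns (9.11 to 9.47) lie above (7.63 to 7.78), and the points of Hspa5 overlap.

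The balance of the calls rests on how the arrays are scaled. Shifting them to equal medians of 18 hybridization control probe sets raised the median change of all genes from −0.02 to 0.38. On that scale 9 of the 36 genes were higher and 2 were lower, and of all called genes 86.6% were higher in place of 52.5%. The lower calls of Ern2 and Creb3l1 remained there. Those of Dnajb9, Atf6, Ern1, Herpud1, Sel1l and Ppp1r15a were lost, although each kept a lower mean. This scale rested largely on control replicate 1, whose hybridization controls had a median of 11.17, against 10.41 and 10.51 in the other controls and 10.17 to 10.44 at 48 hpi. Without that array the median change on this scale was 0.16, 68.9% of called genes were higher, and 8 of the 36 genes were higher and 7 lower, all of the 8 lower genes but Atf6. Without any other array Creb3l1 was the 1 gene called lower on this scale.

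None of the major chaperones of the ER passed the test on its brightest probe set. Hspa5, the Hsp70 of the ER and the usual gauge of the unfolded protein response, had values of 11.88, 11.64 and 11.87 in control and 11.86, 11.94 and 11.94 at 48 hpi. The groups overlapped, and the change was 0.12 (SE 0.10, 95% confidence interval −0.10 to 0.34, adjusted p = 0.382 from limma). A dimmer probe set of Hspa5, at 9.81, 9.82 and 9.91 in control and 10.55, 10.59 and 10.56 at 48 hpi, was called higher by 0.72 (SE 0.08, adjusted p = 0.000418, limma over all probe sets). Hsp90b1 (Grp94), the Hsp90 of the ER, had a change of 0.32 (95% confidence interval −0.01 to 0.65), and without control replicate 3 it was called higher (0.48, adjusted p = 0.0166 from limma). The calcium-binding lectin chaperones Calr and Canx, which retain unfinished glycoproteins, had changes of −0.05 (SE 0.12) and 0.22 (SE 0.10). Hyou1 (Grp170), which exchanges nucleotide on Hspa5, had 0.01 (SE 0.13).

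The protein disulfide isomerases form and rearrange the disulfide bonds of secreted proteins. Pdia3, Pdia4, Pdia6 and P4hb had changes of 0.12, 0.21, 0.17 and 0.08, with SE between 0.10 and 0.12, and none passed the test (adjusted p from 0.215 to 0.609, limma). Both Sec61 genes, which encode subunits of the channel for entry into the ER, were also not called, with 0.15 (SE 0.10) for Sec61a1 and 0.06 (SE 0.09) for Sec61b.

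Among the smaller partners of Hspa5 and the secreted ER proteins, changes ran in both directions. Manf, an ER protein that is released under stress and acts on Hspa5, had values of 9.74, 9.66 and 9.95 in control and 10.35, 10.35 and 10.49 at 48 hpi. All 48 hpi pools lay above all control pools, a rise of 0.61 (SE 0.10, adjusted p = 0.00252), or 1.53-fold. Dnajb11 (ERdj3), a J-domain cochaperone that brings unfolded proteins to Hspa5, rose from 8.52, 8.50 and 8.65 to 8.87, 8.98 and 9.19, by 0.46 (SE 0.11, adjusted p = 0.0105). Creld2, a small ER protein induced by stress, rose from 8.14, 8.22 and 8.64 to 8.79, 8.77 and 8.90, by 0.49 (SE 0.14, adjusted p = 0.0245). The groups of Creld2 came within 0.12 of each other, and its call was lost when any array other than control replicate 3 was left out (adjusted p from 0.0515 to 0.0866, limma). Sdf2l1, which works with Dnajb11, had a change of 0.38 (SE 0.16, adjusted p = 0.101) and was called higher without control replicate 3 (0.58, adjusted p = 0.00692, limma).

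Dnajb9 (ERdj4), another J-domain cochaperone and a known target of spliced Xbp1, moved the other way. It had values of 9.70, 9.42 and 9.27 in control and 8.57, 8.39 and 8.07 at 48 hpi. The groups did not overlap, and the fall amounted to a log2 change of −1.12 (SE 0.15, adjusted p = 0.000968), so that control was 2.17-fold higher. It was the 1 folding gene called lower. Dnajc3 (p58IPK), a cochaperone that also restrains PERK, had a change of −0.17 (SE 0.09, adjusted p = 0.179).

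**Figure D2:**
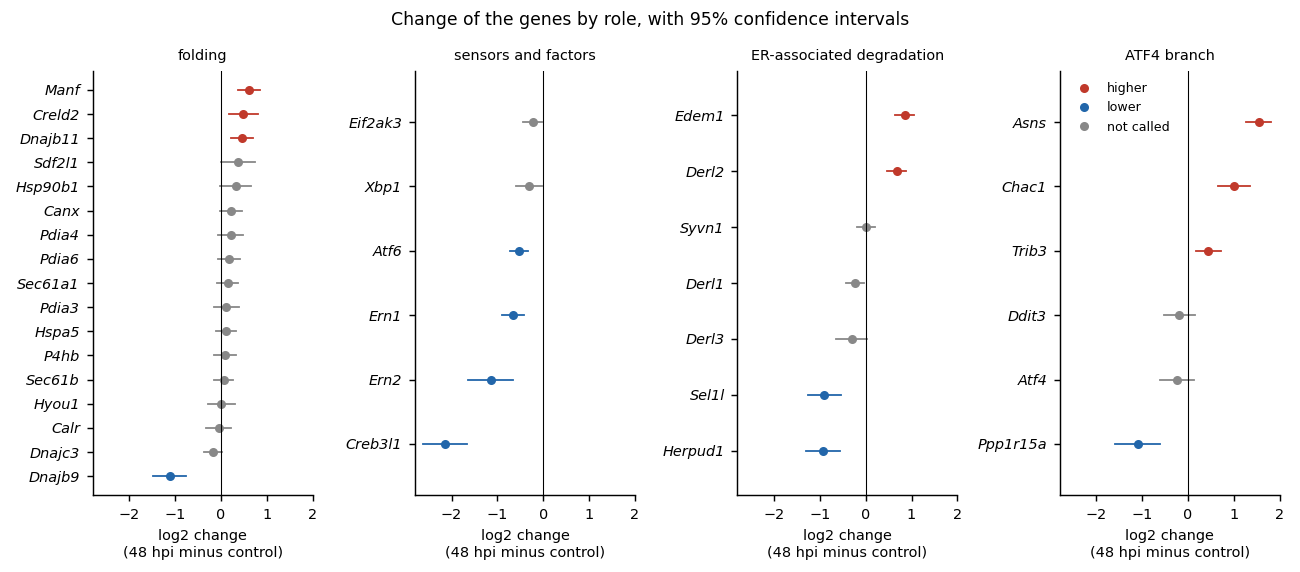
Log2 change, 48 hpi minus control, of the 36 genes by role, with bars for 95% confidence intervals (limma, n = 3 per group). Colors separate calls: red for higher, blue for lower, grey for neither. Of the 17 folding genes 13 are grey, and the points of all 6 sensors and factors lie to the left of 0.

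The classical promoter element of these chaperones is the ER stress response element (ERSE), a CCAAT box and a CCACG box held 9 bases apart, to which NF-Y and Atf6 or Xbp1 bind. It was searched as CCAAT and CCACG with any 9 bases between them, on both strands of promoter windows from RefSeq (GRCm38.p6), which run from 250 bases before to 50 bases after each start. Windows were found for 29 of the 36 genes (not for Hyou1, Manf, Sec61a1, Derl1, Atf6, Ern2 and Creb3l1). The element was in the windows of 9 of them (31%), and in those of 37 of 27025 genes overall (0.137%). The sites are printed because this is the element by which the chaperones are known to answer ER stress. They are written on the strand of the motif with the fixed bases in capitals. They are matches of letters and were not tested for binding.
Hspa5, chr2:34772025-34772043: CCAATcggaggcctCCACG
Hsp90b1, distal, chr10:86705638-86705656: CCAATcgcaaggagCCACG
Hsp90b1, proximal, chr10:86705533-86705551: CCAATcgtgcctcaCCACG
Calr, chr8:84847075-84847093: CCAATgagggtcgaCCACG
Canx, chr11:50325800-50325818: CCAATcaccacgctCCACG
Pdia6, chr12:17266491-17266509: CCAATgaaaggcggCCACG
Dnajc3, chr14:118937827-118937845: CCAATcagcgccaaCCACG
Creld2, chr15:88819520-88819538: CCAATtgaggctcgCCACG
Syvn1, chr19:6046532-6046550: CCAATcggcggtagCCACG
Derl3, chr10:75893242-75893260: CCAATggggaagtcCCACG

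The sites of Calr, Creld2 and Derl3 and the proximal site of Hsp90b1 run opposite to the gene. The 250 bases before the start of Hspa5 (chr2:34771840-34772089, plus strand) show the setting of such a site, which begins 65 and ends 47 bases before the start, with the matched bases in capitals:
Hspa5 promoter: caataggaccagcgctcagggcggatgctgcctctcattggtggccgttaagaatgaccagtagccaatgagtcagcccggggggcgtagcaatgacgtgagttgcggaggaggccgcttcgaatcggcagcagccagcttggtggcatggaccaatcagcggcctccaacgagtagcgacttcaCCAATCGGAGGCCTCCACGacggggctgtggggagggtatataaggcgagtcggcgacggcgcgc

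Of the 9 genes with an ERSE 1 was called on the brightest probe sets, Creld2, where 36.9% of all genes were called. With the mean of all probe sets 4 of the 9 were called (Hspa5, Canx and Creld2 higher and Dnajc3 lower), and Creld2 lost its call in 7 of 15 alternatives. On the brightest probe sets their changes lay between −0.30 and 0.49 with a median of 0.12. The changes of the 20 genes with a window and no such match ran from −1.12 to 1.54, with 6 called higher and 5 lower. Sites that differ from the ERSE letters in any fixed base were not counted. The search therefore does not show that these 20 genes lack such an element. Outside the list, 11 measured genes had an ERSE in a window. Among these 1 was higher and none was lower, with a median change of −0.01. The related element ERSE-II, ATTGG and CCACG with any 1 base between them, was in the windows of Herpud1 and Dnajb11, and in those of 12 genes overall (0.0444%), with no overlap with an ERSE in either gene.
Herpud1, chr8:94386377-94386387: ATTGGgCCACG
Dnajb11, chr16:22857852-22857862: ATTGGcCCACG

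The Herpud1 site runs from 52 to 42 bases before the start. The Dnajb11 site lies after the start, at −7 to −17 when counted the same way. These 2 genes moved in opposite directions, Herpud1 to a lower and Dnajb11 to a higher level. The letters TGACGTGG (UPRE, 0.714% of all genes) and TGATGNAAT (CARE, an element bound by Atf4 and C/EBP factors, 1.08% of all genes) were in none of the 29 windows. The CARE search fixed the last base as T. Letters that differ from it in that last base only are present in the windows of Asns, Chac1 and Herpud1, for the latter 2 on the opposite strand. Matches with the last base left free were not counted, so the search does not show that these genes lack an Atf4 element.

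Of the sensors and transcription factors of the response, Creb3l1, Ern2, Ern1 and Atf6 were lower in the repairing epithelium, and Xbp1 and Eif2ak3 were not called. The largest fall of the 36 genes was that of Creb3l1 (OASIS), a membrane-bound factor that is cut in the Golgi like Atf6 and drives genes of secretory cargo. Its values were 8.36, 8.43 and 8.45 in control and 6.58, 6.49 and 5.73 at 48 hpi. The control pools lay close together and all 48 hpi pools lay more than 1.7 log2 units below them, a change of −2.14 (SE 0.21, 95% confidence interval −2.62 to −1.67, adjusted p = 0.000192). Control was thus 4.42-fold higher. The call held in all 15 alternatives run, with changes between −2.30 and −1.88 when arrays were left out in turn.

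Ern2, the IRE1 paralog of mucous epithelia, had values of 8.22, 8.52 and 8.44 in control and 7.33, 7.65 and 6.74 at 48 hpi. The fall was −1.15 on the log2 scale (SE 0.21, adjusted p = 0.00357), or 2.22-fold higher in control, and no pool overlapped. Ern1, its widely expressed paralog, had 8.20, 8.27 and 8.32 in control against 7.77, 7.54 and 7.47 at 48 hpi, a change of −0.66 (SE 0.10, adjusted p = 0.00161). Both paralogs were therefore lower. The difference Ern1 minus Ern2 within an array was −0.13 ± 0.11 in control and 0.36 ± 0.43 at 48 hpi (SD, n = 3), and the 2 genes could not be shown to differ in their fall (exact permutation test, two-sided p = 0.2, adjusted over 5 such pairs p = 0.333). In both 48 hpi groups of values replicate 3 was the lowest, and this array also correlated least with the others of its group across all probe sets (0.990 and 0.992, against 0.996 between these).

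Atf6 had values of 7.89, 8.06 and 7.94 in control and 7.39, 7.46 and 7.44 at 48 hpi on its brightest probe set, a change of −0.53 (SE 0.09, adjusted p = 0.00194). Its 3 probe sets did not move alike. The dimmest, which stayed above background, rose from 5.32 to 5.89, by 0.57 (SE 0.08, adjusted p = 0.00124, limma over all probe sets), and the third had a change of −0.04 (SE 0.08). The mean of the 3 was not called (adjusted p = 0.99, limma), so the direction of Atf6 depends on the probe set. The 4 further probe sets of Ern1 were at or near background, none was called, and the mean of all 5 had a change of −0.14 (adjusted p = 0.192, limma).

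Xbp1, the factor activated by IRE1, had values of 10.95, 11.09 and 11.00 in control and 10.86, 10.81 and 10.44 at 48 hpi. The change of −0.31 (SE 0.12, adjusted p = 0.0885) did not pass the test although the arrays did not overlap. Its other 3 probe sets had changes of −0.19, −0.13 and 0.11. Eif2ak3 (PERK) had 7.95, 7.88 and 7.90 against 7.71, 7.77 and 7.56, a change of −0.23 (SE 0.09, adjusted p = 0.0766). Both genes were called lower after repeated quantile normalization (−0.41 and −0.34), and with equal hybridization controls their changes were 0.09 and 0.16, or −0.18 and −0.05 on that scale without control replicate 1. The difference Xbp1 minus Atf6 changed by 0.22 between the groups (exact permutation test, two-sided p = 0.4).

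Markers of secretory cells were lower in the same arrays. Of 12 mucous and goblet cell markers 9 were lower and 1 was higher, and the summed level of the list lay between 13.77 and 14.11 in control and between 11.24 and 12.75 at 48 hpi. Spdef, the transcription factor that sets the mucous fate, had 7.17 ± 0.18 in control and 6.21 ± 0.52 at 48 hpi (SD, n = 3), with 5.61 in replicate 3. Muc5b, the main airway mucin, had 11.52, 11.95 and 11.70 and then 10.66, 11.07 and 8.98. For both genes, as for Creb3l1 and Ern2, 48 hpi replicate 3 was the lowest of its group. This order was not particular to secretory genes. Replicate 3 was also the lowest for Ern1, Dnajb9, Herpud1, Sel1l and Ppp1r15a, though not for Atf6. The same held for the basal cell markers Ngfr and Dapl1, which were called lower, and not for Pdpn, also called lower. Of the 11 basal cell markers 3 were lower, 3 were higher (Krt14, Itga6 and Krt5) and 5 were not called. Their summed level was 14.23 to 14.30 in control and 14.47 to 14.62 at 48 hpi. Among the ER stress genes called higher, 48 hpi replicate 3 was the highest of its group for Asns, Dnajb11, Manf and Creld2. It was not the highest for Edem1, Derl2, Trib3 and Chac1. Of 10 club and secretory cell markers 8 were lower, with a summed level of 17.14 to 17.19 in control and 15.89 to 16.67 at 48 hpi, and of 14 ciliated cell markers 10 were lower, with 11.70 to 12.45 and then 11.36 to 11.71. Of 18 leukocyte markers 4 were lower and 14 were not called, with a median change of −0.10, and 9 were above background in control. Their summed level, 13.83 to 14.10 in control and 10.91 to 12.86 at 48 hpi, was carried by Lyz2 (13.85, 13.60 and 13.87 in control and 12.35, 10.99 and 8.57 at 48 hpi). Among all genes 17.5% were called lower and 19.4% higher. With equal hybridization controls, 5 mucous and goblet, 5 club and secretory, 7 ciliated and 1 of the leukocyte markers were lower. That scale rested largely on control replicate 1. The part of these markers in the falls of Creb3l1, Ern2, Ern1 and Atf6 was not tested.

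Genes of ER-associated degradation, which extracts misfolded proteins to the cytosol for the proteasome, included 2 that rose, Edem1 and Derl2, and 2 that fell, Herpud1 and Sel1l. Herpud1, a membrane protein that gathers the degradation complex and is among the strongest targets of ER stress, had values of 9.76, 10.06 and 9.56 in control and 9.06, 8.90 and 8.59 at 48 hpi. All 48 hpi pools lay lower, by −0.94 on the log2 scale (SE 0.16, adjusted p = 0.00251), and a further probe set fell by 0.83 (SE 0.16, adjusted p = 0.00528, limma over all probe sets). Sel1l, the scaffold of the ubiquitin ligase Syvn1 (Hrd1), had 10.57, 10.97 and 10.70 and then 9.90, 10.07 and 9.54, a change of −0.91 (SE 0.16, adjusted p = 0.00282). Of its 5 probe sets 4 were called lower and none higher. Syvn1 itself was not called, and its groups overlapped on its brightest probe set (7.76, 7.85 and 7.93 against 7.81, 7.91 and 7.85), with a change of 0.01 (95% confidence interval −0.19 to 0.21).

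Edem1, a lectin that marks misfolded glycoproteins for removal, rose from 7.40, 7.58 and 7.57 to 8.29, 8.44 and 8.37, by 0.85 (SE 0.09, adjusted p = 0.000335), or 1.80-fold. This call held in all 15 alternatives run. A dimmer probe set of Edem1 had a change of 0.16 (SE 0.08) and was not called.

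The Derlins are channel-like proteins of the same pathway. Derl2 rose from 7.76, 7.59 and 7.84 to 8.42, 8.41 and 8.40, by 0.68 (SE 0.09, adjusted p = 0.0009), with its second probe set called lower (−0.36, SE 0.11, adjusted p = 0.0356, limma over all probe sets). Derl1 had a change of −0.23 (SE 0.08, adjusted p = 0.0711) and Derl3, known from professional secretory cells, of −0.30 (SE 0.15, adjusted p = 0.145). For Derl1 the result depended on the probe set, since leaving out x and s probe sets gave a rise of 0.38 (adjusted p = 0.0215, limma). On its brightest probe set Derl1 was called lower in 4 of the 15 alternatives. Within arrays, Derl2 minus Derl3 was 1.08 ± 0.23 in control and 2.06 ± 0.17 at 48 hpi (SD, n = 3), without overlap (exact permutation test, p = 0.1 and 0.25 adjusted over the 5 pairs). Derl1 minus Derl3 changed by 0.08 (exact permutation test, p = 0.7), and Calr minus Canx by −0.27 (exact permutation test, p = 0.1 and 0.25 adjusted).

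In the ATF4 branch Asns, Chac1 and Trib3 rose, Ppp1r15a fell, and the transcription factors Atf4 and Ddit3 were not called. Atf4 itself had values of 10.96, 10.51 and 10.47 in control and 10.65, 10.25 and 10.30 at 48 hpi, a change of −0.24 (SE 0.16, adjusted p = 0.291). Ddit3 (CHOP), the factor linked to cell death under prolonged stress, had 7.67, 7.15 and 7.15 against 7.14, 7.15 and 7.11, a change of −0.19 (SE 0.14, adjusted p = 0.35). For neither gene did the groups separate, and a dimmer probe set of Ddit3 was called lower (−0.57, SE 0.14). Ppp1r15a (Gadd34), which reverses the translational block of PERK, fell from 10.16, 9.57 and 9.81 to 9.11, 8.78 and 8.35, by 1.10 (SE 0.21, adjusted p = 0.00436).

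Asns, asparagine synthetase, rose most of the 36 genes. It had values of 7.78, 7.63 and 7.70 in control and 9.14, 9.11 and 9.47 at 48 hpi. The groups were more than 1.3 log2 units apart, and the rise of 1.54 (SE 0.12, 95% confidence interval 1.27 to 1.81, adjusted p = 6.26e-05) amounted to 2.91-fold. Its second probe set rose by 1.83 (SE 0.16). Chac1, which degrades glutathione, had 4.59, 4.43 and 4.32 in control, within background, and 5.15, 5.75 and 5.46 at 48 hpi. The change was 1.01 (SE 0.16, adjusted p = 0.00159), and counted from the control background the rise was 1.43-fold. Trib3, a pseudokinase that feeds back on Atf4, rose from 5.62, 5.53 and 5.21 to 5.89, 5.98 and 5.83, by 0.44 (SE 0.12, adjusted p = 0.0197), and lost its call without control replicate 3 (0.32, adjusted p = 0.0534) or 48 hpi replicate 2 (0.40, adjusted p = 0.0671, limma).

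Of 36 other measured genes known as ATF4 targets 19 were higher and 8 were lower, with a median change of 0.53. Among all genes 19.4% were called higher and 17.5% lower. The leading genes were Psat1 and Phgdh, enzymes of serine synthesis (2.53, SE 0.15, and 3.01, SE 0.22), Shmt2, the mitochondrial serine hydroxymethyltransferase (2.35, SE 0.17), and Slc7a5, a transporter of large neutral amino acids (2.94, SE 0.23). Phgdh had values of 7.06, 7.43 and 7.44 in control and 9.99, 10.10 and 10.86 at 48 hpi, without overlap. Split by function after their values were seen, all 5 enzymes of serine, glycine and one-carbon metabolism and 8 of 9 aminoacyl-tRNA synthetases were higher, a split that carries no test. Of 7 amino acid transporters 2 were higher and 3 lower, and of 6 transcription factors 1 was higher and 2 were lower. All 9 measured proliferation markers were also higher (Mki67, 7.30 ± 0.08 in control and 10.77 ± 0.21 at 48 hpi, SD, n = 3), with a summed level of 11.01 to 11.21 in control and 13.76 to 14.11 at 48 hpi. Their part in the rise of Asns and of these targets was not tested.

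**Figure D3:**
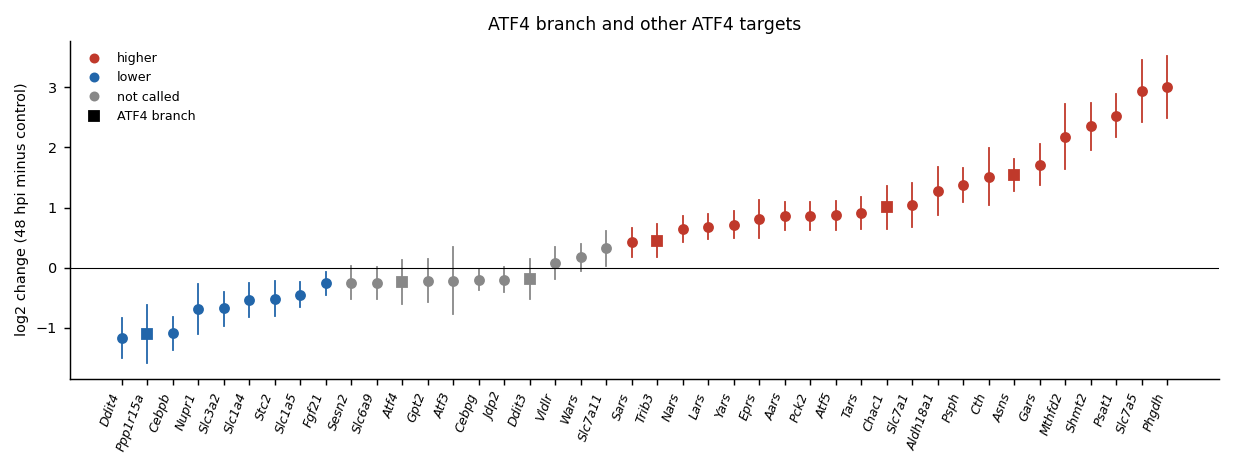
Log2 change, 48 hpi minus control, of the 6 genes of the ATF4 branch (squares) and 36 other known ATF4 targets (circles), in order of change, with 95% confidence intervals from limma. Asns (1.54) stands among the genes called higher (red), Ppp1r15a (−1.10) among those called lower (blue), and Atf4 and Ddit3 among those not called (grey).

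Other ER genes were counted from lists by role. The counts of these lists stand beside 19.4% of all genes called higher and 17.5% called lower. Of 33 genes of ER entry and N-glycosylation 12 were higher and 2 were lower, with a median change of 0.19. Ssr2 and Ssr1, subunits of the translocon-associated protein complex, rose by 0.93 (SE 0.12) and 0.62 (SE 0.08), and Dpagt1, which starts the N-glycan precursor, rose by 0.74 (SE 0.10). Sec62, a partner of the Sec61 channel, had a change of −0.54 (SE 0.08). Of the 32 other folding enzymes 7 were higher and 8 lower. The largest change of that list, named after its values were seen, was the fall of Agr3, of the disulfide isomerase family, from 6.04, 7.41 and 6.77 to 4.81, 4.98 and 3.61 (−2.27, SE 0.42), with a 48 hpi mean of 4.47 within background. The 4 called genes of that list with the smallest p were all higher. Erp29, an ER protein of the disulfide isomerase family, rose by 0.81 (SE 0.11), Ero1a, the oxidase that recharges disulfide isomerases, by 0.59 (SE 0.09), Fkbp11, a prolyl isomerase, by 1.07 (SE 0.17), from a control level of 4.89 within background, and Uggt1, the folding sensor of glycoproteins, by 0.54 (SE 0.09).

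In the remaining degradation list 3 of 26 genes were higher and 6 were lower. Ube2j2, a ubiquitin-conjugating enzyme of the ER, rose by 0.79 (SE 0.11), whereas Herpud2, the paralog of Herpud1, had a change of −0.55 (SE 0.09), Selenos −0.46 (SE 0.09) and Os9, a lectin of the Syvn1 complex, −0.75 (SE 0.15). Among 27 further sensors, proteases and cofactors 8 were higher and 8 lower. Creb3l2, the closest paralog of Creb3l1, had 8.91, 8.83 and 8.88 in control and 7.71, 7.74 and 7.20 at 48 hpi, a change of −1.33 (SE 0.15). Nfya, a subunit of the NF-Y factor that binds CCAAT boxes, rose by 0.81 (SE 0.10), Eif2b5, a subunit of the exchange factor that phosphorylated eIF2 blocks, by 0.95 (SE 0.11), and Bak1, a pore-forming protein of cell death, by 1.35 (SE 0.12). With equal hybridization controls, 3 genes of all these lists, cytosolic heat shock and ER to Golgi genes included, were called lower, in place of 45, and 19 on that scale without control replicate 1.

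**Figure D4:**
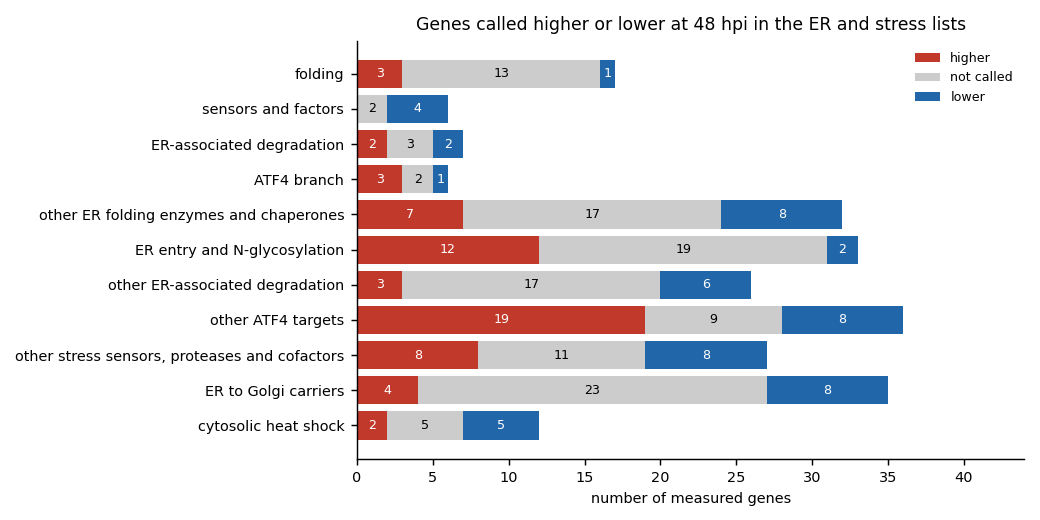
Number of measured genes called higher (red), lower (blue) or not called (grey) at 48 hpi in the 4 groups of ER stress genes and in 7 lists of related genes. The folding genes are mostly not called (13 of 17), none of the 6 sensors and factors is higher, and 19 of 36 other ATF4 targets are higher.

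The probe sets of a gene often gave different results. Of the 84 probe sets 14 were called higher, 18 lower and 52 were not called, when all probe sets with 1 symbol were tested together (17.7% of all such probe sets were higher and 15.2% lower). Of 24 genes with more than 1 probe set, 2 (Atf6 and Derl2) had probe sets called in both directions, and 2 (Asns and Herpud1) had every probe set called the same way. For Hspa5 the dimmer s probe set rose, the brightest did not pass the test, and the mean of its 3 probe sets was called higher (0.34, adjusted p = 0.00725, limma). Canx was similar, with a dimmer probe set at 0.87 (SE 0.11, adjusted p = 0.000777) and a mean called higher (0.44, adjusted p = 0.0112, limma). Second probe sets of Pdia3 (−0.61, SE 0.14) and Pdia6 (−0.37, SE 0.11, within background) were called lower, as were 2 of 5 for Dnajc3, whose mean was called lower (−0.31, adjusted p = 0.0354, limma). The absence of a call for Hspa5, Canx and Dnajc3 therefore holds for their brightest probe sets and not for every probe set.

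**Figure D5:**
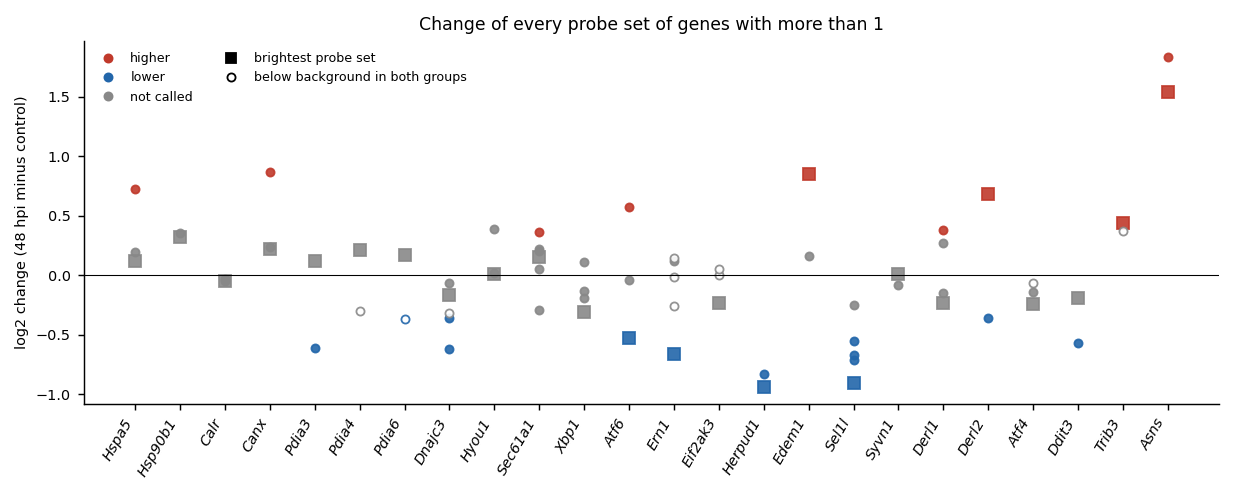
Log2 change, 48 hpi minus control, of every probe set of the 24 genes with more than 1, with squares for the brightest probe set and open symbols for probe sets below background in both groups. Red and blue mark probe sets called higher and lower. Atf6 and Derl2 have both colors, and both probe sets of Asns (1.54 and 1.83) are red.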

How the data were processed

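Epithelial RNA of 3 control and 3 48 hpi pools was measured on Affymetrix Mouse Genome arrays. The deposited values are log2 intensities that the authors normalized by robust multi-chip analysis (RMA). The methods name Partek Genomics Suite 6.5 and the submitters' processing notes also Affymetrix Expression Console 1.1. No detection calls came with the values, which run from 2.01 to 14.56. Of 45101 probe sets 34958 have 1 gene symbol in the array annotation, and 34945 of these, without control probe sets, were used for 18193 genes. The brightest probe set stood for a gene. Control and 48 hpi were compared over all genes, and again over all probe sets, by lmFit and eBayes of limma 3.58.1 (R 4.3.3) with default settings and no block, and differences between paralogs or partners by exact permutation tests. Figures used matplotlib 3.10.9. The samples are labelled as biological replicates, whether they came from separate exposures is not given in the sources used here, and p-values measure the spread between pools. RMA normalizes the arrays against each other, so changes are relative to the other genes. The deposited values do not share exactly 1 distribution, with array medians from 4.89 to 4.99.

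The genes and lists were chosen with earlier results of these data known. All 36 genes are named, of each related list the 4 called genes with the smallest p, and of marker lists those a sentence turns on. Alternatives were the replicate number as a block, a plain t-test (which the methods give for measurements other than the arrays, and which is not the authors' array test), a mean-variance trend, repeated quantile normalization, shifts to equal hybridization controls or a common median, the omission of dim probe sets, the mean of all probe sets of a gene, the omission of x and s probe sets, and leaving out each array. Leaving out each array on the scale of equal hybridization controls was added after the values were seen. Mesenchymal arrays were not analysed here. Precision is limited by the number of arrays, 3 per group.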

Additional observations from a re-analysis of the deposited data

How the results depend on the processing

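Over 15 alternatives, 6 to 10 of the 36 genes were higher and 2 to 12 were lower, against 8 and 8. Of the 16 called genes 6 kept their call in every alternative (Dnajb11, Manf, Creb3l1, Edem1, Asns and Chac1). Leaving out 1 array gave 6 to 9 higher and 8 lower genes, 11 to 16 higher and 14 to 19 lower probe sets, and 46 to 53 higher and 30 to 41 lower genes of the related lists. With equal hybridization controls the lower counts were 2 genes, 2 probe sets and 3 genes of the related lists (8, 18 and 45 otherwise). The lower counts of genes on that scale changed most without control replicate 1. Without it 8 genes were higher and 7 lower, and 19 of the related lists were lower. Leaving out control replicates 2 and 3 in turn gave 10 and 9 higher genes. Leaving out 48 hpi replicates 1, 2 and 3 in turn gave 7, 5 and 4 higher genes. In each of these fits 1 gene was lower. These alternatives on that scale were chosen after seeing the data. By a plain t-test, which is not the authors' test for these arrays, adjusted by Benjamini-Hochberg, 6 genes were higher and 7 lower (8 and 11 at the unadjusted threshold), and 9 probe sets were higher and 9 lower (14 and 18 with limma). Ern2 missed that test (adjusted p = 0.0539), as did Ppp1r15a (0.0589), Creld2 (0.104) and Trib3 (0.0791). Of all called genes, 52.5% were higher, against 86.6% with equal hybridization controls and 63.4% with a common median. The cause of these differences was not tested.

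With the mean of all probe sets, Ern1 minus Ern2 changed by 1.01 (0.49 otherwise), Derl1 minus Derl3 by 0.37 (0.08), Derl2 minus Derl3 by 0.47 (0.98), Xbp1 minus Atf6 by −0.13 (0.22) and Calr minus Canx by −0.49 (−0.27). Leaving out 1 array gave ranges of 0.30 to 0.72, −0.09 to 0.19, 0.86 to 1.08, 0.12 to 0.36 and −0.30 to −0.23 in the same order, so the sign of Derl1 minus Derl3 is not settled (−0.09 without control replicate 1 and −0.03 without 48 hpi replicate 3). Without x and s probe sets Derl1 was called higher (0.38), and in 4 other alternatives it was called lower. With the replicate number as a block 8 genes were higher and 8 lower, the same 16 genes. Same-numbered pools deviated together only weakly (correlations of 0.07, 0.16 and 0.03 across genes). Those of pools with different numbers ran from −0.14 to 0.04. Correlations this small cannot decide whether the numbers mark pairs. The labels do not say that they do, so the numbers were not taken as pairs.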

Other observations

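Cytosolic chaperones, which answer to heat shock factor and not to the ER, moved in both directions. Of 12 measured genes 2 were higher and 5 were lower, with a median change of −0.29. The shares over all genes were 19.4% called higher and 17.5% called lower. Hspa4, a nucleotide exchange factor of cytosolic Hsp70, had 9.01 ± 0.03 (SD) in the 3 control pools and 10.35 ± 0.22 in the 3 pools of 48 hpi, a rise of 1.33 (SE 0.12, adjusted p = 0.000143 from limma). The small heat shock proteins Hspb1 and Hspb8 and the J-domain protein Dnajb1 were lower, with control 1.99-fold, 1.87-fold and 2.12-fold above 48 hpi. With equal hybridization controls, a scale that rested largely on control replicate 1, 2 genes of this list were higher and 0 were lower.

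Of 35 genes for carriers between the ER and the Golgi 4 were higher and 8 were lower, with a median change of −0.08. These counts stand beside the same shares of all genes, 19.4% and 17.5%. The Golgi tether Golgb1 had a change of −0.67 (SE 0.10), Sec24d, a cargo adaptor of COPII vesicles, −0.63 (SE 0.10), and Copa, a coat protein of COPI vesicles, −0.37 (SE 0.09), while Tfg, which organizes ER exit sites, rose by 0.38 (SE 0.08). On the same scale 3 of the carrier genes were higher and 0 were lower.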
